A study of Mus musculus with 4 samples.

Results

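MicroRNA levels of transformed and normal mouse oligodendrocyte precursors were compared by setting the array of the line OPCL61 against the array of the line OPC. OPC are oligodendrocyte precursor cells, and OPCL61 are glioma-initiating cells that were derived from such precursors. The series holds 4 lines on 4 arrays, the others being NSC (neural stem cells) and NSCL61 (glioma-initiating cells derived from such stem cells). OPC and OPCL61 were each measured on 1 array, from cultured cells of 1 RNA sample, and the transforming agent is not analysed here. All 1023 mouse miRNAs on the array entered the comparison. Of these, 214 were well above background in OPC or OPCL61, 131 of them in both lines, 75 in OPCL61 alone and 8 in OPC alone. The array software sets a well-above-background flag for every spot, and a miRNA counted as measured when at least 50% of the spots of any of its probes carried it.

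A miRNA is a short RNA that guides Argonaute proteins to messenger RNAs, chiefly by pairing of its seed, bases 2 to 8 from the 5′ end. miRNAs with the same seed share many targets and form a family, and hairpins that lie close together are often cut from a common primary transcript. Oligodendrocyte precursors divide in the developing and adult brain and mature into myelinating oligodendrocytes under the control of miR-219 and miR-338, which repress genes that keep the precursor state. Glioma-initiating cells are cells that can found a glioma.

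The sequences below are those on which the comparison turns, from RefSeq on GRCm38.p6, in which 165 of the 214 measured miRNAs were found by name. They are written 5′ to 3′ with the seed in capitals. The first set holds both miR-9 arms and the 5p arm of miR-204, which had the 3 lowest values in OPCL61 relative to OPC, and members of the miR-29 family, which were higher.
miR-9-3p: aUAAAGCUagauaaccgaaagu
miR-9-5p: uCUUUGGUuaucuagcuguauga
miR-204-5p: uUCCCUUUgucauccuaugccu
miR-29a-3p: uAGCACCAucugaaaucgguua
miR-29b-3p: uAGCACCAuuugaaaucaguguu
miR-29c-3p: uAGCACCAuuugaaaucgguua

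The second set holds members of related clusters that share a seed and whose differences between the lines were unequal.
miR-99b-5p: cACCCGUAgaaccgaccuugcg
miR-99a-5p: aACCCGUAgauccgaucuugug
miR-100-5p: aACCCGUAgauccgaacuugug
let-7e-5p: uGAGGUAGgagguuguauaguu
let-7c-5p: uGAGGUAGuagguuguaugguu
miR-125a-5p: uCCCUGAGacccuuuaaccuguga
miR-125b-5p: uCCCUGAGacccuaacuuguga
miR-27a-3p: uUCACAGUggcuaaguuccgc
miR-27b-3p: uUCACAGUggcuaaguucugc

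The third set holds selected members of the miR-17, miR-322 and miR-503, miR-15 and miR-16, and miR-181 groups. All those shown but miR-16-5p were called lower in OPCL61 after scaling. The groups as a whole were less uniform. Lower were 4 of 10 measured arms of miR-17 and its paralogs, 2 of 4 of miR-322 and miR-503, 0 of 5 of miR-15 and miR-16, and 3 of 4 of miR-181.
miR-20a-5p: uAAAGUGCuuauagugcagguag
miR-20b-5p: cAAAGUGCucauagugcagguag
miR-93-5p: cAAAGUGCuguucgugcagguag
miR-322-5p: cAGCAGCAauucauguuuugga
miR-503-5p: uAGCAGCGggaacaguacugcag
miR-16-5p: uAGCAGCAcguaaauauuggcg
miR-181a-5p: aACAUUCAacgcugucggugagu
miR-181b-5p: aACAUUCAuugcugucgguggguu

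The arrays differed in overall brightness, which sets how every value below must be read. A level is the geometric mean over the replicate spots of the brightest probe, in scanner units, and is called the unscaled signal. Summed over the miRNAs well above background it was 32111 units in OPC and 95031 in OPCL61, while the median of 1000 negative control spots was 2.53 and 3.03 units. Among the 131 miRNAs measured in both lines, only 18 had the lower unscaled signal in OPCL61. The arrays were therefore scaled by their 75th percentiles over 182 probes well above background on all 4 arrays, which lowered OPCL61 relative to OPC by 1.68 on the log2 scale. Such scaling would also take out a true overall difference in miRNA content between the lines. Whether the brightness gap came from the arrays or from the samples was not tested. Differences are log2 values of OPCL61 minus OPC after this scaling, and unscaled values are given beside them. Errors are standard errors over spots of the same array (spot SE), which measure technical precision within an array and say nothing of the spread between cultures. With 1 array per line no test was possible. How few arrays there were limits precision throughout, and in bulk RNA fewer cells with a miRNA and less of it per cell cannot be told apart.

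A miRNA was called when the lines differed by at least 2-fold and, where both measured it, by more than 2 spot SE. Where only 1 line was well above background, the brighter level was set against the higher of the dim probe's own level and the lowest level of any detected probe of that array, and the result is a bound, written "at least". By this rule 31 miRNAs (14.5% of the 214) were higher and 44 (20.6%) were lower in OPCL61. The median difference over the 131 was −0.33, so that a miRNA at 0 lay above the median of the measured miRNAs. Without scaling 119 (55.6%) were higher and 4 (1.87%) lower, and with scaling over all mouse probes 109 (50.9%) and 6 (2.8%). The other scalings gave 29 (13.6%) and 47 (22%) on the median of the shared probes, 28 (13.1%) and 49 (22.9%) over the probes well above background in both OPC and OPCL61, and 32 (15%) and 42 (19.6%) with quantile normalization. Of the 44 lower miRNAs, 23 also had the lower unscaled signal in OPCL61 and 21 had the higher one. Each of the 31 higher miRNAs was higher by at least 2-fold without scaling too, as the scaling could only lessen them.

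**Figure D1:**
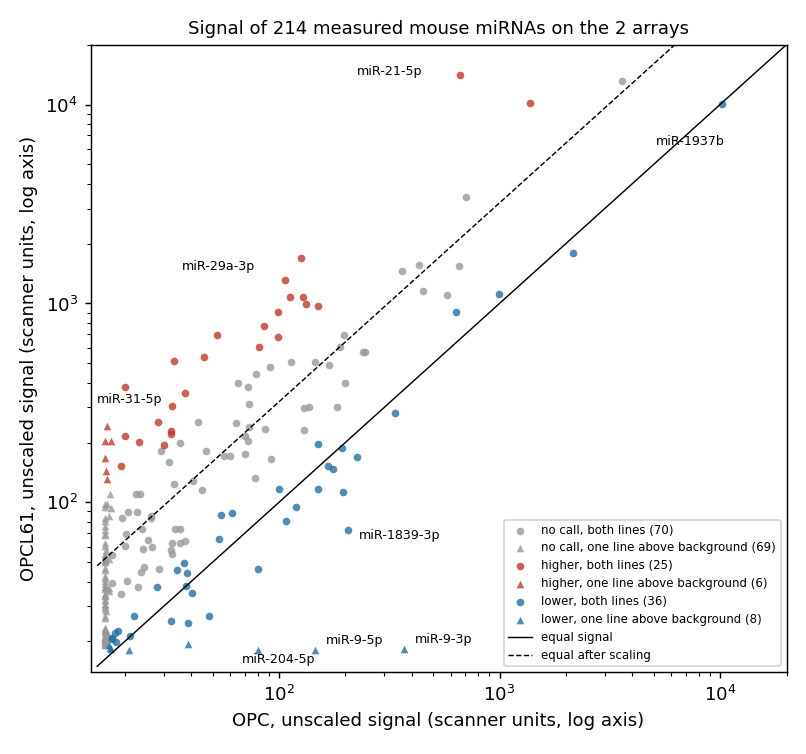
Unscaled signal of 214 measured miRNAs in OPC (horizontal) and OPCL61 (vertical), both in scanner units on log axes, with circles for miRNAs well above background in both lines, triangles for those so in 1 line, red for higher, blue for lower and grey for no call. Most points lie above the solid line of equal signal, and the dashed line marks equal signal after the shift of 1.68 on the log2 scale.

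Of the miRNAs measured in both lines, those nearest to the threshold were miR-1895 and miR-23a-3p just inside, each 2.01-fold higher, and miR-497-5p and miR-3077-5p just outside, at 1.94-fold and 1.90-fold. On the lower side miR-30c-5p at 2.04-fold and miR-23b-3p at 2.23-fold were just inside, and miR-3095-3p at 1.98-fold and miR-3085-3p at 1.97-fold just outside. Among the bounds, miR-135a-1-3p at 1.999-fold (17.2 and 110 units) just missed a call. A call therefore separates values that lie close together. The rule also treats the directions unequally after the shift. A miRNA above background in OPCL61 alone needed about 110 units there to be called higher. Those above background in OPC alone were called lower at whatever level. The median spot SE of a difference was 0.04 on the log2 scale and the largest was 0.10. Probes of a miRNA gave like values. Over the 90 miRNAs with at least 2 probes measured in both lines, the median range between probes was 0.09, and 2 ranges exceeded 1. These were miR-1940, called higher, with probes at 0.21 and 1.22, and miR-1906, not called, with probes at −1.10 and 0.03. In 45 of 45 called miRNAs with several such probes, the probes had the same sign. That says little, since a call needs at least 2-fold in the brightest probe and probes seldom differed by so much.

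Both arms of miR-9 were the lowest of all measured miRNAs in OPCL61 relative to OPC. miR-9 is a brain miRNA that restrains progenitor proliferation and promotes neuronal differentiation, and it is made from 3 hairpins, with miR-9-3p at chr13:83738858-83738879, chr3:88215652-88215673 and chr7:79505318-79505339 (GRCm38.p6, plus strand). miR-9-3p gave 371 units in OPC and 18.3 in OPCL61, where the array's floor, its lowest spot well above background, was 18.2. By these bounds it was at least 64.3-fold lower after scaling and at least 20.1-fold lower without it. miR-9-5p gave 145 units in OPC and 18.2, the floor, in OPCL61, at least 25.2-fold lower after scaling and at least 7.87-fold without. Neither arm was well above background in OPCL61, so both folds are bounds.

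miR-204-5p lies in an intron of Trpm3 (chr19:22750610-22750631, plus strand) and is abundant in retinal pigment epithelium and choroid plexus. It gave 80.0 units in OPC and was at the floor of 18.2 in OPCL61, at least 13.9-fold lower and, without scaling, at least 4.33-fold. Its seed is shared with miR-211-5p, which both arrays left below the detection rule. The opposite arm of that hairpin, miR-211-3p, has another seed and gave 133 units in OPC and 989 in OPCL61, a difference of 1.21 (spot SE 0.01).

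miR-129-2-3p, an arm of a neuronal miRNA, gave 38.7 units in OPC and 19.4 in OPCL61, at least 6.38-fold lower and at least 1.99-fold lower without scaling. miR-138-1-3p is the minor arm of a miR-138 hairpin, and the main arm, miR-138-5p, was detected in neither line (16.3 and 18.4 units). The minor arm gave 120 and 94.7 units, a difference of −2.02 (spot SE 0.04), or −0.34 without scaling. In all, 5 of 27 arms of the neuronal list were measured. Of these, 2 were lower and none higher, beside 20.6% and 14.5% over all 214. The other 3 were measured in OPCL61 alone. Of them miR-218-5p gave 52.7 units, miR-212-3p 29.9 and miR-7a-5p 57.9, all too dim for a higher call under the rule. miR-124-3p, miR-128-3p and miR-132-3p, which are enriched in neurons, were detected in neither line.

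The labels were set against miRNAs of the oligodendrocyte lineage. miR-219-5p, the chief miRNA of maturing oligodendrocytes, gave 16.5 units in OPC and 18.2 in OPCL61 and was well above background in neither, whereas it gave 68.4 units in NSC. miR-338-3p gave 20.9 units in OPC, little above the floor of 16.3, and 18.2 in OPCL61, where it was not well above background. It was called lower by at least 3.62-fold after scaling and by at least 1.13-fold without. Both arrays thus lacked a clear signal of these defining miRNAs of maturing oligodendrocytes. The precursor identity itself was not tested beyond them. Of 19 arms on the oligodendrocyte differentiation list 5 were measured, with miR-23a-3p higher and miR-138-1-3p, miR-23b-3p and miR-338-3p lower. Over all 214, 14.5% were higher and 20.6% lower. Without scaling 2 of the list were called higher and 0 lower, beside 55.6% and 1.87% over all 214, and miR-23b-3p was 1.44-fold higher. miR-146a-5p, measured in OPCL61 alone at 76.3 units, was at least 1.40-fold higher and not called.

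Markers of other cell types were nearly absent from both arrays. None of 12 muscle, 21 epithelial, 2 endothelial, 2 hepatocyte and 2 endocrine arms was well above background in OPC or OPCL61, and miR-142-3p, miR-143-3p, miR-145-5p and miR-223-3p were not either. The fibroblast, pericyte and smooth muscle list had 3 of 11 arms measured, with summed signals of 45.7 units in OPC and 138 in OPCL61 and no call. From the blood cell list 1 of 9 arms was measured, miR-150-3p. It gave 20.1 units in OPC and 379 in OPCL61, a difference of 2.56 (spot SE 0.10), while miR-150-5p, the arm that lymphocytes carry, was well above background in neither line. Of 22 arms of pluripotent cell clusters 3 were measured, and miR-290-3p alone was called. It was lower by 2.60-fold after scaling at 18 and 22.1 units, so that its unscaled signal was the higher one in OPCL61. The part of other cell types in the results was not tested beyond these levels.

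**Figure D2:**
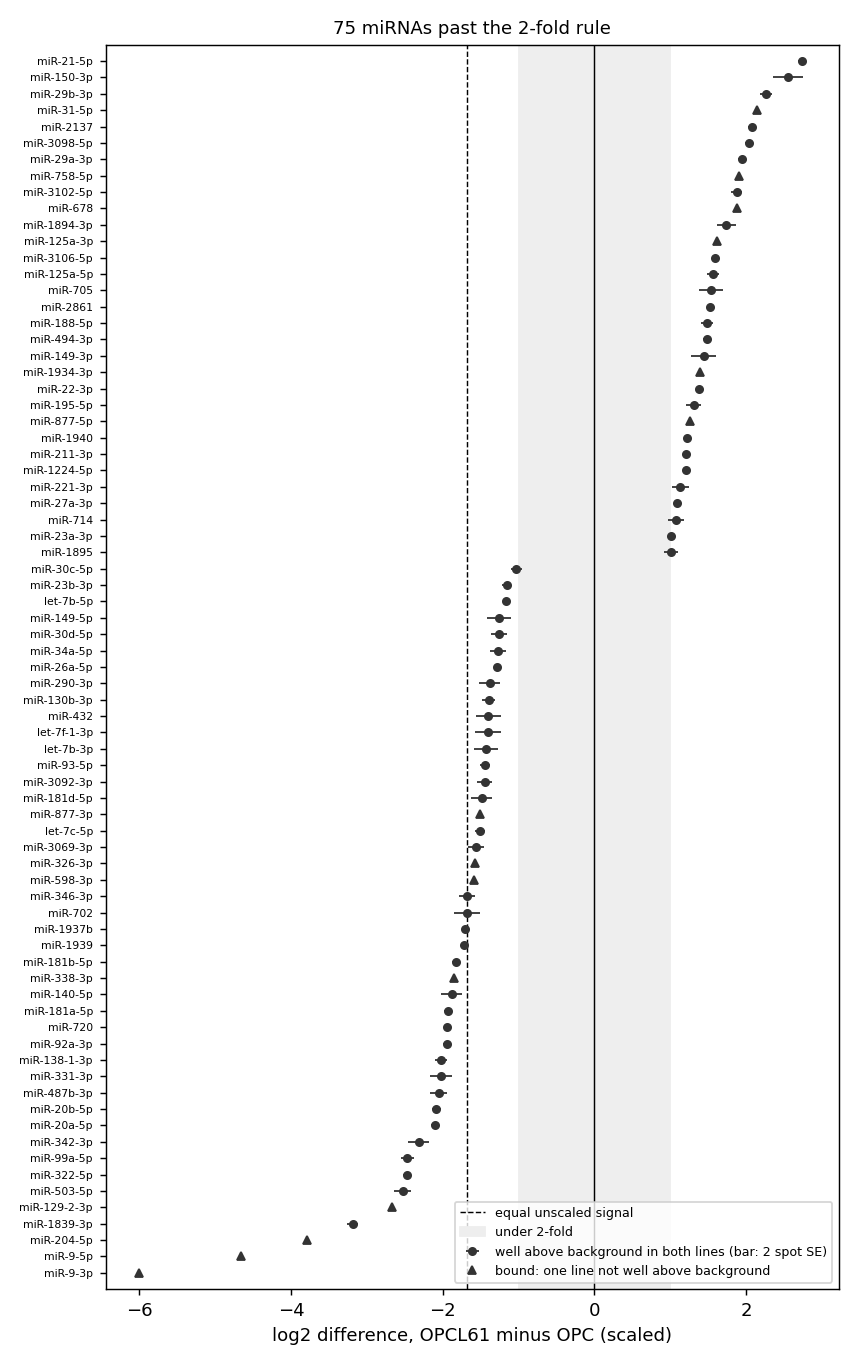
Scaled log2 difference of OPCL61 minus OPC for the 75 called miRNAs, with bars of 2 spot SE for those well above background in both lines and triangles for bounds. The dashed line at −1.68 marks equal unscaled signal, with 23 of the 44 lower miRNAs to its left when their unscaled signals are compared.

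Among the higher miRNAs, several are known from tumours. miR-21-5p, which represses tumour suppressors such as Pdcd4 and is raised in most solid tumours, gave 662 units in OPC and 14079 in OPCL61, a difference of 2.73 (spot SE 0.02), or 6.65-fold higher. Its other arm, miR-21-3p, was at the floor in OPC and gave 19.1 units in OPCL61. miR-31-5p was at 16.7 units in OPC, not well above background, and at 242 in OPCL61, at least 4.43-fold higher. Its 3p arm gave 16.3 and 60.1 units and its bound was under 2-fold, which is no call. miR-22-3p gave 129 units in OPC and 1072 in OPCL61, 2.59-fold higher. Under the normexp background correction 13 of the 31 higher calls were kept, among them miR-21-5p, miR-22-3p, miR-29a-3p, miR-29b-3p and miR-150-3p, and the calls of miR-31-5p, miR-221-3p, miR-125a-5p, miR-195-5p, miR-23a-3p and miR-27a-3p were lost.

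miR-221-3p and miR-222-3p lie next to each other on the X chromosome (chrX:19146307-19146329 and chrX:19146901-19146923, minus strand), share a seed and repress the cell cycle inhibitor p27. miR-221-3p gave 32.3 units in OPC and 227 in OPCL61, 2.19-fold higher, and miR-222-3p was at the floor in OPC and gave 94.8 units in OPCL61, at least 1.74-fold higher and not called. On the list of miRNAs raised in glioma, 12 of 28 arms were measured, 3 of them higher (miR-21-5p, miR-31-5p and miR-221-3p) and 2 lower (miR-26a-5p and miR-93-5p), beside 14.5% and 20.6% over all 214. Without scaling 7 were higher and 0 lower, beside 55.6% and 1.87% over all 214. The median of the 6 measured in both lines was −0.21, beside −0.33 over all 131. miR-10b-5p, raised in human glioblastoma, gave 26.4 and 83.7 units, a difference of −0.02, and the hypoxia miRNA miR-210-3p gave 24.2 and 58.4 units, a difference of −0.41.

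The miR-29 family represses collagens and other matrix genes as well as DNA methyltransferases. miR-29a-3p gave 107 units in OPC and 1313 in OPCL61, and miR-29b-3p gave 33.6 and 516 units. They were 3.84-fold and 4.80-fold higher (differences 1.94 and 2.26, spot SE 0.02 and 0.04). miR-29c-3p gave 17.4 and 93.8 units, was not well above background in OPC, and was at least 1.69-fold higher. miR-29a and a copy of miR-29b lie next to each other on chromosome 6 (chr6:31062673-31063047, from the first to the last mature base), and the second copy of miR-29b lies beside miR-29c on chromosome 1. The mature miR-29b-3p does not tell its copies apart. miR-29a-3p and miR-29c-3p differ at 1 of 22 bases, so their probes could share signal, which was not tested.

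Paralogous clusters had unequal differences between the lines. The size of such a contrast does not depend on a constant scaling of the arrays, since a shift moves all members alike, but the sign of each member does: without scaling, miR-99a-5p alone of the miRNAs contrasted in these clusters was lower in OPCL61. The cluster of miR-99b, let-7e and miR-125a spans chr17:17830194-17830876. Its members miR-99b-5p (20.7 units in OPC, 89.3 in OPCL61), let-7e-5p (78.5 and 441 units) and miR-125a-5p (37.4 and 354 units) had differences of 0.43, 0.81 and 1.56, of which the last was called. The passenger arm miR-125a-3p was also called, at least 3.08-fold higher. The cluster of miR-99a and let-7c lies on chromosome 16 (chr16:77598940-77599693). There miR-99a-5p gave 80.3 units in OPC and 46.4 in OPCL61, a difference of −2.47. let-7c-5p gave 997 and 1121 units, a difference of −1.51, but has a further copy on chromosome 15, beside let-7b.

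Set against each other, miR-99b-5p and miR-99a-5p differed in their changes by 2.90 (spot SE 0.07), a 7.46-fold shift in their ratio. let-7e-5p and let-7c-5p differed by 2.32 (spot SE 0.05), or 4.99-fold. miR-125a-5p and miR-125b-5p differed by 0.96 (spot SE 0.04), with miR-125b-5p at 707 and 3427 units. Under quantile normalization, which is no constant shift, the differences were 3.01 for the miR-99 pair and 2.35 for the let-7 pair. miR-100-5p, which differs from miR-99a-5p at 1 of 22 bases and lies on chromosome 9, gave 26.6 and 59.8 units, a difference of −0.51 that was not called. Closely alike probes thus gave unlike changes within this seed family.

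The clusters of miR-23, miR-27 and miR-24 also had unequal members. They act on differentiation and metabolism in many tissues, and the repression of lamin B1 by miR-23 supports myelin formation in mice. On chromosome 8 (chr8:84208563-84208896) miR-23a-3p gave 150 units in OPC and 966 in OPCL61, and miR-27a-3p gave 99.4 and 677 units. They were 2.01-fold and 2.13-fold higher. From the chromosome 13 cluster, miR-23b-3p gave 61.4 and 88.3 units, 2.23-fold lower after scaling and 1.44-fold higher without it, and miR-27b-3p gave 35.8 and 62.5 units, a difference of −0.87. The changes of miR-23a-3p and miR-23b-3p differed by 2.16 (spot SE 0.04), and those of miR-27a-3p and miR-27b-3p by 1.96 (spot SE 0.07). miR-27a-3p and miR-27b-3p differ at 1 of 21 bases. miR-24-3p is made by both clusters and gave 91.3 and 477 units, an intermediate difference of 0.71.

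**Figure D3:**
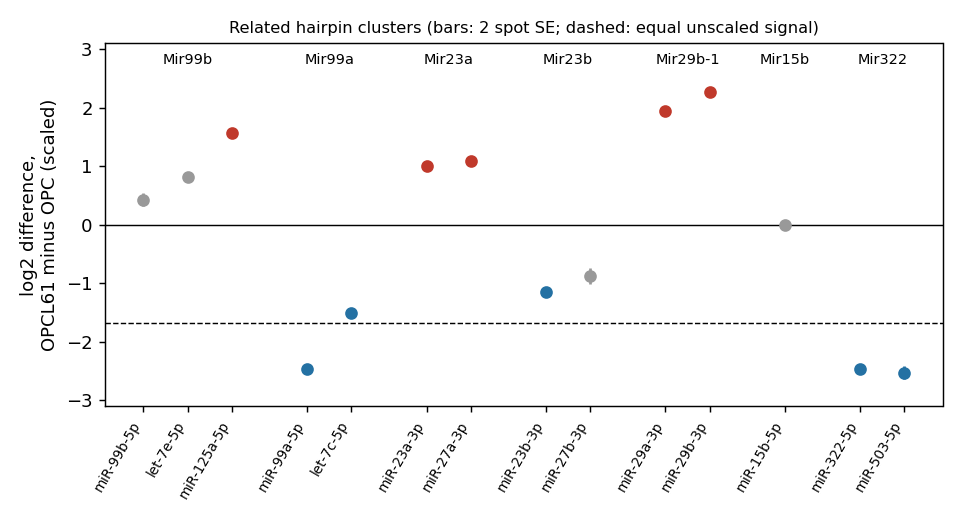
Scaled log2 difference of OPCL61 minus OPC, with bars of 2 spot SE, for members of related hairpin clusters named above the points, coloured red for higher, blue for lower and grey for no call. The Mir99b and Mir23a clusters lie above 0 and the Mir99a and Mir23b clusters below it, and the dashed line at −1.68 marks equal unscaled signal.

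The miR-17 to miR-92 cluster and its paralogs, which promote proliferation and are needed for oligodendrocyte precursor numbers in mice, had 10 of 29 arms measured, 4 lower and none higher, where 20.6% of all measured miRNAs were lower. Without scaling 3 of its arms were higher and 0 lower, beside 55.6% and 1.87% over all 214 measured miRNAs. miR-20a-5p gave 226 units in OPC and 169 in OPCL61, miR-20b-5p 107 and 80.9 units, and miR-92a-3p 337 and 280 units. Their differences were −2.10, −2.09 and −1.95 (spot SE 0.02, 0.03 and 0.03), and without scaling −0.42, −0.41 and −0.27. These 3 miRNAs belonged to the 18 with the lower unscaled signal in OPCL61.

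miR-93-5p gave 99.8 and 117 units, a difference of −1.44 that was 0.23 without scaling. In contrast miR-19a-3p (24.1 and 73.8 units) and miR-19b-3p (146 and 511 units), from the same primary transcript as miR-20a, had differences of −0.06 and 0.12. Members of this cluster thus did not share a difference. miR-106b-5p at −0.85 and miR-25-3p at −0.97 were not called, and miR-17-5p was detected in neither line. The median of the 8 members measured in both lines was −1.21, beside −0.33 over all 131.

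The X-linked cluster of miR-322 and miR-503 slows the cell cycle through cyclins and Cdc25a. miR-322-5p (chrX:53054306-53054327) gave 195 units in OPC and 112 in OPCL61, and miR-503-5p (chrX:53054027-53054049) gave 48.2 and 26.8 units. Their differences were −2.47 and −2.53 (spot SE 0.03 and 0.06), or −0.79 and −0.85 without scaling. The measured neighbours miR-351-3p and miR-542-5p were above background in OPCL61 alone, at 26.3 and 22.8 units, and gave no fold.

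miR-322-5p has the seed of miR-15 and miR-16, whose members behaved otherwise. miR-15a-5p gave 73.2 and 239 units, miR-15b-5p 188 and 604 units and miR-16-5p 245 and 573 units, with differences of 0.03, 0.00 and −0.45, none called. miR-195-5p, of the same family, gave 19.3 and 153 units, 2.48-fold higher, and its cluster neighbour miR-497-5p gave 29.1 and 181 units, 1.94-fold higher and not called. The changes of miR-195-5p and miR-322-5p differed by 3.78 (spot SE 0.06).

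miR-181, which is lowered in human glioma, had 3 of 4 measured members lower. miR-181a-5p gave 177 and 148 units, miR-181b-5p 168 and 152 units and miR-181d-5p 38.4 and 43.9 units. Their differences were −1.94, −1.83 and −1.48, and without scaling they were −0.26, −0.15 and 0.20. miR-181a-5p and miR-181b-5p are made together from 2 clusters on chromosomes 1 and 2 and differed in change by 0.11 (spot SE 0.03). On the list of miRNAs lowered in glioma 8 of 35 arms were measured, 5 lower and none higher, namely miR-181a-5p, miR-181b-5p, miR-204-5p, miR-326-3p and miR-34a-5p, beside 20.6% lower over all 214. Without scaling 2 of the list were higher and 1 lower, beside 55.6% and 1.87% over all 214. Its members measured in OPCL61 alone were too dim for a higher call under the rule. miR-34a-5p, whose gene p53 activates, gave 34.5 and 45.8 units, a difference of −1.27 that was 0.41 without scaling. miR-34b-5p and miR-34c-5p were measured in OPCL61 alone, at 30.9 and 34.5 units, also too dim for a higher call. miR-326-3p lay near the floor in both lines, at 17.2 and 18.5 units, so that its bound of 2.99-fold rests on the scaling.

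The let-7 family, which promotes differentiation and represses growth genes, had 11 of 20 arms measured, all 11 of them in both lines. let-7a-5p gave 581 and 1103 units, let-7f-5p 452 and 1153 units, let-7d-5p 168 and 491 units and let-7i-5p 137 and 301 units, and none of these was called. Called lower were let-7c-5p, let-7b-5p (634 and 904 units, difference −1.17) and the minor arms let-7b-3p and let-7f-1-3p, which lay at 17.6 and 20.9 units and at 18.7 and 22.7 units. The 9 mature members with the common let-7 seed ranged from −1.51 to 0.81. All had the higher unscaled signal in OPCL61.

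Of the other families, miR-30 had 5 members measured, with miR-30c-5p and miR-30d-5p lower at differences of −1.03 and −1.26 and miR-30a-5p (43.1 and 253 units) at 0.88, not called. miR-26a-5p was 2.43-fold lower at 150 and 198 units, and miR-26b-5p gave 40.7 and 129 units, a difference of −0.02. miR-130b-3p was 2.62-fold lower at 53.5 and 65.3 units, while miR-130a-3p gave 113 and 507 units, a difference of 0.48. miR-103-3p and miR-107-3p, which share a seed and regulate metabolism, had nearly equal differences of −0.06 and −0.08. All of these lower members had the higher unscaled signal in OPCL61.

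**Figure D4:**
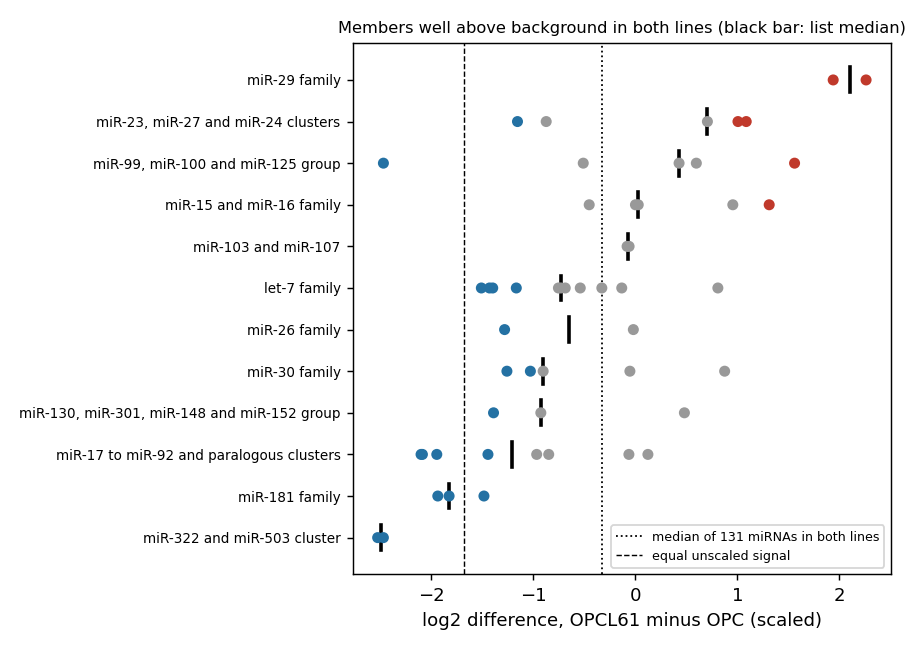
Scaled log2 difference of OPCL61 minus OPC for members well above background in both lines, a row for each family or cluster, with red for higher, blue for lower, grey for no call and a black bar at the median. The miR-29 members lie at 1.94 and 2.26, the miR-322 and miR-503 members at −2.47 and −2.53, and the dotted line marks the median of −0.33 over 131 miRNAs.

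Seeds were shared by at least 2 measured miRNAs in 17 of 130 seed groups. In 15 of the 17 a member was called, and in none of them did members get calls in opposite directions. That says little, since most of the groups had no more than 1 called member, where opposite calls could not arise. Several called members occurred only for the seeds of miR-20a-5p, miR-181a-5p, miR-29a-3p, let-7c-5p and let-7b-3p. The count covers matched sequences only. It leaves out miR-23b-3p and miR-195-5p, which had no entry, and miR-195-5p (called higher) and miR-322-5p (called lower) belong to 1 family. Among the matched sequences, wide spreads within a seed were those of miR-99 and miR-100 (−2.47 to 0.43), of miR-15, miR-16 and miR-322 (−2.47 to 0.03) and of let-7 (−1.51 to 0.81).

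Some miRNAs were lower outside these families. miR-1839-3p gave 207 units in OPC and 72.6 in OPCL61, a difference of −3.19 (spot SE 0.04), and was 2.85-fold lower without scaling, making it the only miRNA measured in both lines that was called lower on the unscaled signal. Its 3 probes gave differences between −3.22 and −3.17. miR-342-3p (38.8 and 24.9 units), miR-331-3p (32.4 and 25.5 units) and miR-487b-3p (150 and 116 units) had differences of −2.32, −2.02 and −2.05. miR-140-5p, a cartilage miRNA, was lower by 1.88 on the log2 scale at 40.2 and 35 units, and its 3p arm gave 23.6 and 44.9 units, a difference of −0.75.

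Imprinted miRNAs of the Dlk1-Dio3 region on chromosome 12, which are numerous in neurons and embryonic tissue, were measured for 6 of 95 arms. miR-494-3p gave 85.7 and 768 units and was 2.80-fold higher, and miR-758-5p was at the floor in OPC and gave 204 units in OPCL61, at least 3.74-fold higher. miR-487b-3p was lower. The changes of miR-494-3p and miR-487b-3p differed by 3.54 (spot SE 0.06), so members of this region did not move alike. Of the list, the remaining 3, miR-134-5p, miR-370-3p and miR-770-3p, were measured in OPCL61 alone and not called. The list leaves out measured miRNAs that lie among or near these hairpins, such as miR-432 (22.0 and 26.7 units, difference −1.40, called lower) and miR-3072-5p (33.4 and 124 units, difference 0.21). Another is miR-1906 (26.2 and 85.6 units, difference 0.03), which has a further copy on the X chromosome. Farther along chromosome 12, miR-1247-3p was measured in OPCL61 alone, at 62.5 units, and not called.

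Mirtrons are miRNAs cut from short introns by splicing. miR-1224-5p gave 1379 units in OPC and 10172 in OPCL61, 2.30-fold higher, and miR-3102-5p gave 45.7 and 539 units, 3.68-fold higher. miR-877-5p was at least 2.39-fold higher at 16.6 and 131 units, while miR-877-3p and miR-702, at 16.9 and 19.1 units and at 21.2 units in each line, were called lower through the scaling alone. The group around miR-466 and miR-669, whose hairpins are repeated many times in the mouse genome, had 3 of 61 arms measured and no call, with miR-466i-5p at 130 and 297 units. The cluster of miR-183, miR-96 and miR-182 was measured in OPCL61 alone, at 41.6, 80.5 and 20.1 units, levels too dim for a higher call under the rule.

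The higher miRNAs were richer in G and C than the lower ones. Over those with a mature sequence, the median GC content was 62.8% for 26 higher, 47.8% for 33 lower and 50% for 106 uncalled miRNAs. Of 50 measured miRNAs with at least 60% GC, 14 were higher and 5 lower, whereas of 94 with 40% to under 60% GC 11 were higher and 25 lower. Across the 100 with a sequence that were measured in both lines, GC content correlated with the difference at r = 0.31 (Pearson) and rho = 0.26 (Spearman). With the GC content of the probe, over all 131 miRNAs measured in both lines, the correlation was weaker, at rho = 0.13 (Spearman). These values describe miRNAs on 2 arrays. The miRNAs share the arrays, the labelling and the scaling, and the part of base composition in their signal was not tested.

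The GC-rich miRNAs that were higher included miR-2137 (126 and 1699 units, 4.21-fold), miR-2861 (98.8 and 908 units, 2.87-fold), miR-1894-3p (20.2 and 216 units, 3.34-fold) and miR-149-3p (23.1 and 201 units, 2.71-fold). Little is known of most of them. A few are shown here with their seeds in capitals.
miR-2137: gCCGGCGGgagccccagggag
miR-149-3p: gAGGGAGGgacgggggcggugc
miR-1894-3p: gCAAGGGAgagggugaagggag
miR-3102-5p: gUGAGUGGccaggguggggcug
miR-150-3p: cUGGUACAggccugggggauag
By registry number, 15 of 77 measured miRNAs numbered 600 and over were higher (19.5%) and 8 lower (10.4%), against 16 (11.7%) and 36 (26.3%) of 137 with lower numbers. The median GC content of these groups was 63.6% and 47.6%. miR-3098-5p (52.7 and 694 units, 4.11-fold higher) and miR-3106-5p (112 and 1080 units, 3.01-fold higher) also carry such numbers, the first with a GC content of 54.5%. So does miR-705 (32.8 and 305 units, 2.90-fold higher), and miR-188-5p, with a lower number, was 2.80-fold higher at 28.4 and 255 units. Among the brightest in OPCL61, miR-652-5p (362 and 1461 units), miR-709 (432 and 1564 units) and miR-3096-5p (653 and 1550 units) were not called.

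**Figure D5:**
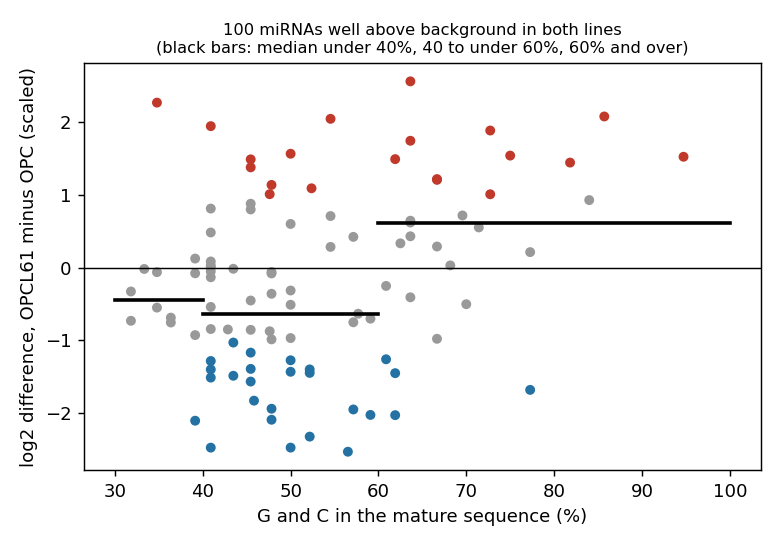
Scaled log2 difference of OPCL61 minus OPC against the G and C content of the mature sequence for 100 miRNAs measured in both lines, with red for higher, blue for lower and grey for no call. Black bars mark the medians of −0.44 under 40% GC, −0.63 from 40% to under 60%, and 0.62 at 60% and over.

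The arms of a hairpin could differ. In 13 hairpins both arms were measured, and in 4 both arms were well above background in both lines. miR-149-5p gave 28.1 and 37.6 units, a difference of −1.26, while miR-149-3p had a difference of 1.44, so that their changes differed by 2.70 (spot SE 0.11). The arms of miR-877 also had opposite calls, both as bounds. let-7b, miR-125a and miR-9 had the same call for both arms.

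Some entries, bright or not, gave nearly equal unscaled signals. miR-1937b gave 10228 and 10077 units, miR-1939 193 and 187 units, and miR-720, since reclassified as a fragment of transfer RNA, 2149 and 1791 units. They were called lower by 3.25-fold, 3.30-fold and 3.84-fold after scaling, and their log2 differences were −0.02, −0.04 and −0.26 without it. miR-2145, among the brightest on both arrays, gave 3587 and 13193 units, a difference of 0.20.

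The 75 miRNAs above background in OPCL61 alone were mostly dim. Of them 6 were called, led by miR-31-5p, miR-758-5p and miR-678, the last at 17.3 and 204 units and at least 3.68-fold higher, followed by miR-125a-3p, miR-1934-3p (16.4 and 143 units, at least 2.62-fold) and miR-877-5p. Of the 8 above background in OPC alone all were called lower. The rule all but fixed that outcome, since the shift of 1.68 on the log2 scale exceeds 2-fold. The floors of the 2 arrays, 16.3 units in OPC and 18.2 in OPCL61, lie close together. Only miR-129-2-3p, miR-204-5p and both arms of miR-9 exceeded 30 units in OPC. miR-598-3p, at 17.3 and 18.4 units, is such a call near the floor, as is miR-326-3p. As a scale for dim signals, probes for miRNAs of mouse viruses reached 102 units in OPC and 95 units in OPCL61. Any part of unspecific binding in signals of that size was not tested.

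In the stem cell lineage, in which NSCL61 was set against NSC on separate arrays, 95 of 245 measured miRNAs were lower (38.8%) and 29 higher (11.8%). Both arms of miR-9 were lower there too, with differences of −6.04 and −4.37, and miR-21-5p (3.84), miR-29a-3p (4.67) and miR-31-5p (at least 22.5-fold) were higher. The miR-322 and miR-503 members were not called there, at 0.68 and −0.34, and miR-20a-5p was not called at −0.77. These are scaled values, with −0.52 subtracted from the log2 levels of NSC and 1.44 from those of NSCL61. Without scaling miR-322-5p, miR-503-5p and miR-20a-5p had the higher signal in NSCL61. No test of a difference between the lineages was possible with 1 array per line.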

How the data were processed

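Arrays were 1-colour Agilent mouse miRNA arrays, each given 100 ng of total RNA per the labels, and spots were quantified in Agilent Feature Extraction 10.7.3.1 per the submitters' processing notes. The deposited intensity of each spot had its background subtracted and spatial trends removed, with no normalization between arrays, per the file headers, which give mm9 coordinates and the same scan time for all 4 arrays. The authors' table over all samples holds identical intensity values. The deposited files also hold other values, flags of 0 or 1 per spot, and no mouse spot was saturated.

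Outlier spots (1842 in OPC, 2365 in OPCL61) were left out, values under the array's lowest well-above-background spot were raised to it, log2 values were averaged over spots, and arrays were scaled. The probe used for a miRNA was the brightest over the 4 arrays, out of 2645 mouse probes. Python 3.11.15, pandas 2.3.3 and limma 3.58.1 (normexp) were used, and the call rule was tested on simulated data.

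The miRNAs, 24 lists and 10 marker lists were chosen with earlier results of these data known, and lists overlap. Names were drawn from the 15 largest differences each way measured in both lines, the 10 largest bounds each way, the 10 brightest miRNAs of each array, those beside the threshold and list members (some list members appear only in counts). miR-22-3p, miR-149-5p, miR-432, miR-714, miR-1247-3p, miR-1906, miR-1939, miR-1940 and miR-3072-5p were chosen after their values were seen, as were the pairs of related miRNAs that were contrasted. Alternatives covered scaling, background correction, outlier spots, dim probes, the summary over probes and the fold threshold.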

Additional observations from a re-analysis of the deposited data

Results flagged for a closer look

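After scaling, some miRNAs were called in opposite directions in the 2 lineages, while 11 were called higher and 20 lower in both. Higher in OPCL61 than OPC but lower in NSCL61 than NSC were 9 miRNAs, namely miR-714 (1.08 against −3.64), miR-1940 (1.22 against −3.22), miR-188-5p (1.49 against −2.19), miR-2137 (2.07 against −3.20 on the log2 scale), miR-1224-5p (1.20 against −2.60), miR-211-3p (1.21 against −2.54), miR-1895 (1.01 against −2.40), miR-149-3p (1.44 against −1.87) and miR-2861 (1.52 against −1.12). miR-23b-3p went the other way, at −1.16 in the precursor pair and at 2.76, a bound, in the stem cell pair. It was higher without scaling in both pairs, at 61.4 and 88.3 units and at 18.1 and 475 units. Scaling subtracted −0.52 from the log2 levels of NSC and 1.44 from those of NSCL61. On the unscaled signal miR-2861 (682 units in NSC, 1219 in NSCL61) and miR-149-3p (141 and 150 units) were higher in NSCL61. The rest of the 9 had the lower unscaled signal there. The difference between lineages was not tested, since each line has 1 array.

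Signals of probes for mouse virus miRNAs, which no comparison uses, were well above background in OPCL61 and not in OPC. They were mcmv-miR-m88-1 at 49.999 units, mcmv-miR-m88-1* at 30.7, mghv-miR-M1-2-3p at 21.9 (1 of its probes, others being detected in OPC too), mcmv-miR-M23-1-5p at 21.7, mcmv-miR-M23-1-3p at 20.1 and mcmv-miR-M87-1 at 19.4 units. Not all were particular to OPCL61. In NSC and NSCL61 mcmv-miR-m88-1 gave 65.9 and 48.0 units and mcmv-miR-M23-1-5p 32.8 and 134, while mcmv-miR-m88-1* was at the floor in both.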

How the results depend on the processing

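The split of calls depended mainly on the scaling. Without scaling there were 119 higher and 4 lower miRNAs with a median difference of 1.35, and with the percentile taken over all mouse probes 109 and 6 with a median of 1.19. In these settings, in that order, some lower calls changed sign: let-7b-3p to 0.25 and 0.090, let-7b-5p to 0.51 and 0.35, let-7c-5p to 0.17 and 0.0097, let-7f-1-3p to 0.28 and 0.12, miR-130b-3p to 0.29 and 0.13, miR-149-5p to 0.42 and 0.26, miR-181d-5p to 0.20 and 0.035, miR-23b-3p to 0.52 and 0.36, miR-26a-5p to 0.40 and 0.24, miR-290-3p to 0.30 and 0.14, miR-30c-5p to 0.65 and 0.49, miR-30d-5p to 0.42 and 0.26, miR-34a-5p to 0.41 and 0.25, miR-432 to 0.28 and 0.12, and miR-93-5p to 0.23 and 0.075. Across the 5 other scalings, 27 of the 31 higher and 4 of the 44 lower calls were kept, the latter being miR-1839-3p, miR-204-5p and both arms of miR-9. Normexp background correction was run with an offset of 50 added to every signal. It kept 13 of the 31 higher and 42 of the 44 lower calls. The higher miRNAs had a median signal of 33.6 units in OPC, and the cause of the loss was not tested. The scanner software's total gene signal gave 75 higher calls and a median of −0.13. A 1.5-fold threshold gave 48 higher, and a 3-fold threshold 13 higher and 25 lower. No paired analysis was possible because each line has 1 array. Spot error is technical, and signals near the floor carry little information on size.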
